A study of Mus musculus with 8 samples.

Results

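The 53 genes described here encode the machinery of the G2/M transition and of mitosis, and they were chosen by name: every row of the deposited liver expression table whose gene symbol is on the list was taken, 53 rows out of 55385 gene identifiers. The rule uses no measured value, although the list was drawn up with earlier results of these data known. RNA-seq was performed on whole livers of 8 male mice aged 5 weeks after a 16 h fast, 4 Usp39-HKO and 4 control littermates. Usp39-HKO mice carry Usp39 fl/fl, with loxP sites around exon 2, together with an albumin-driven Cre, so that the deletion is directed to hepatocytes. Whether every other cell type of the liver keeps the gene was not tested here. The labels give the genotype of the controls as WT and the study calls them control littermates, and no other agent or allele is named for either group. Each library was 1 mouse.

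A dividing cell enters mitosis when cyclin B binds and activates the kinase Cdk1, with the kinases Plk1, Aurka and Aurkb acting beside it. Chromosomes are then condensed, attached through kinetochores to a microtubule spindle and held under the spindle checkpoint until the anaphase-promoting complex (APC/C) and its activator Cdc20 mark cyclin B and securin for destruction. Transcripts of most of these genes accumulate late in the cell cycle and are repressed in resting cells, and in the adult liver most hepatocytes rest, dividing again after injury or resection.

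Reads counted per mouse summed to between 8589636 and 10418450. Usp39 itself read 9.35, 10.4, 8.76 and 9.78 FPKM (counts divided by exon length and by library total) in the control mice A468, A472, A473 and A475, and 8.37, 8.63, 8.70 and 8.07 in the Usp39-HKO mice A469, A470, A471 and A474. Every Usp39-HKO value lay below every control value, and the log2 fold change was -0.44 ± 0.11 (SE, edgeR adjusted p = 0.0170), which was not called without scaling factors between mice (-0.18, edgeR adjusted p = 0.223). The gene count covers all exons, not exon 2 alone. The order of mice just given is kept for all values below. In a whole liver, fewer cells of a type and less RNA per cell cannot be told apart.

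The mitotic genes were higher in the Usp39-HKO livers almost throughout. Together the 53 members took 195, 290, 194 and 227 CPM (counts scaled to one common library total) in the control mice and 809, 761, 583 and 1019 in the Usp39-HKO mice, with no overlap between the groups. In the edgeR test across 15620 genes, 49 of the 53 members were called higher at an adjusted p under 0.05, against 11.5% of all genes tested. No member was called lower, against 12.2% of all genes, and none was lower at an unadjusted p under 0.05 or by DESeq2, for which both counts were 0. The median log2 fold change of the members was 1.98, and that of all genes tested was 0.00026. All 53 members passed the filter on low counts, a mean of at least 5 counts over the 8 mice, and 52 of them also had a mean of at least 5 counts in the control mice alone. The exception, Cdc25c, averaged 4.25 counts in controls, so its call carries less weight. For 49 members every Usp39-HKO FPKM lay above every control FPKM, as for 24.7% of all genes. The 4 members that were not called higher were Pttg1, Bub3, Spc24 and Kif15.

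**Figure D1:**
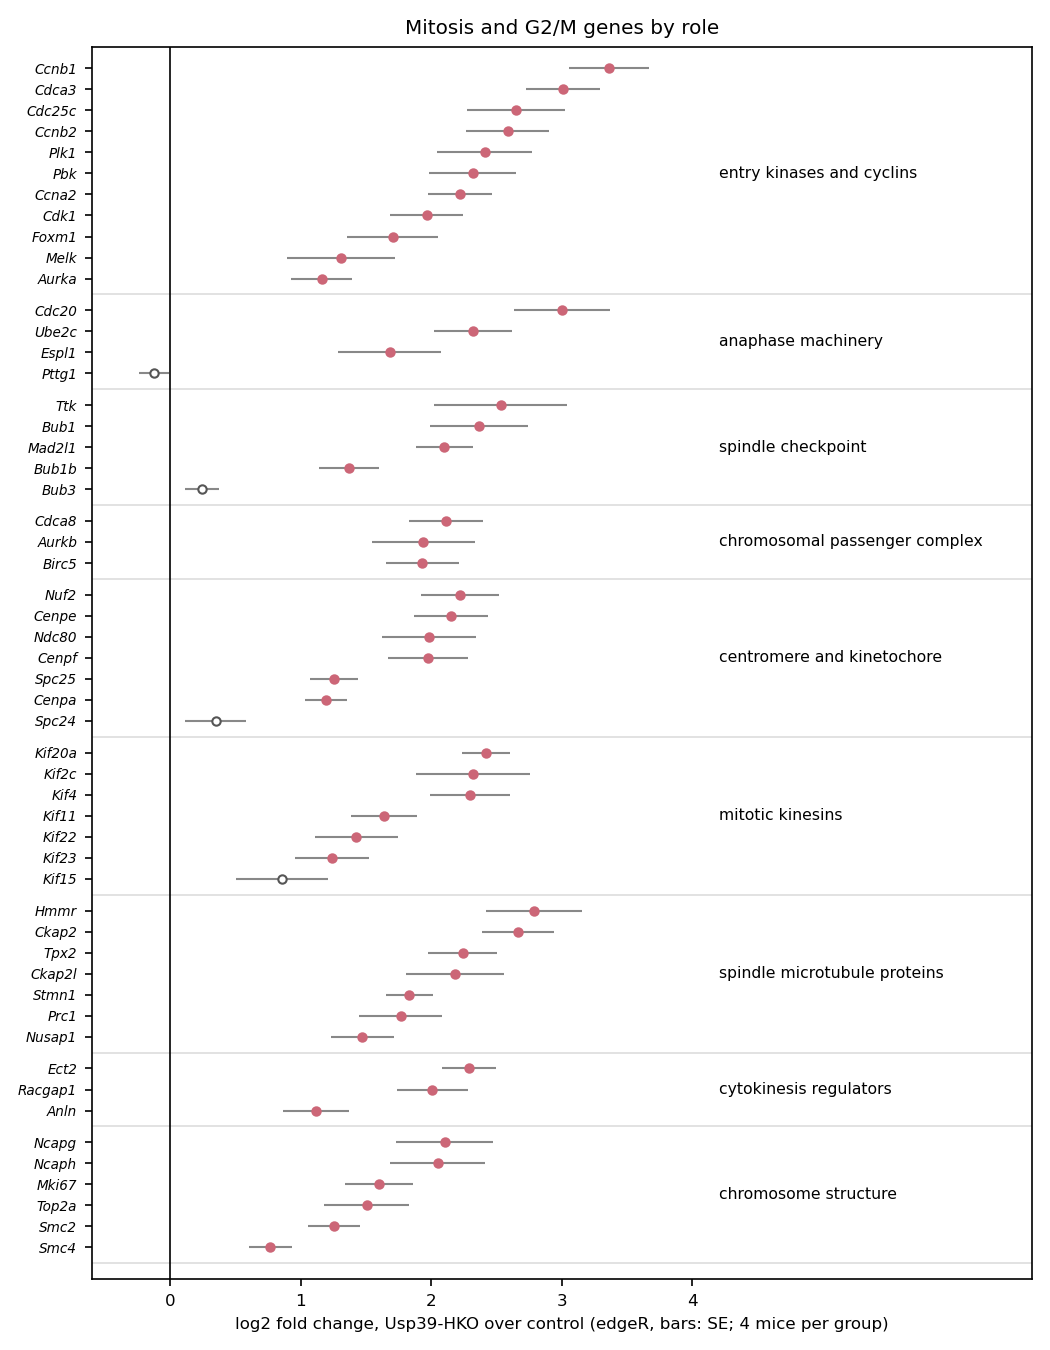
Log2 fold change of each of the 53 members, Usp39-HKO over control, with its standard error (bars), grouped by role. Filled points passed an edgeR adjusted p under 0.05 and open points did not. The range runs from Pttg1 at -0.12, which lay at 0.13 when no scaling factors were used, to Ccnb1 at 3.36.

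The scale matters to small changes. edgeR divides each library by its total count and a TMM (trimmed mean of M values) factor, and the factors were 0.903 to 0.932 in the control mice and 1.01 to 1.21 in the Usp39-HKO mice. Without these factors the median log2 fold change of all genes moved to 0.26, and the split of all calls moved from 1797 higher and 1912 lower to 4053 higher and 764 lower. The deposited FPKM carries no such factor, so that a ratio of 2 FPKM means is larger than the fold change quoted with it. Of the members, 51 were called higher without the factors and 49 with median-ratio factors.

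The promoters of the members were searched for the letters that mark the known binding sites of the cell cycle repressors and activators. The cell cycle genes homology region (CHR, TTTGAA) is bound by the MuvB complex, and the CCAAT box by the factor NF-Y. The RefSeq promoter table (GRCm38.p6, 250 bases before to 50 after each start) held windows for 43 members, and Aurkb, Ccna2, Cdc25c, Foxm1, Kif20a, Pbk, Smc4, Spc24, Stmn1 and Tpx2 had none there. The stretches below, the 180 bases before the RefSeq start of 5 members that were called higher, show how such letters lie in a promoter, with each CHR (TTTGAA, or read on the other strand TTCAAA) and each CCAAT box (CCAAT, or on the other strand ATTGG) in capitals. They were picked after their values were seen.
Ccnb2, chr9:70421555-70421734, minus strand: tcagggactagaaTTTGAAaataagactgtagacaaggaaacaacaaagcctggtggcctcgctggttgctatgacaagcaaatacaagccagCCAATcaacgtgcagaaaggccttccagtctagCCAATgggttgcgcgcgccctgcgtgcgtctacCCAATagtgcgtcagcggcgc
Cdc20, chr4:118437344-118437523, minus strand: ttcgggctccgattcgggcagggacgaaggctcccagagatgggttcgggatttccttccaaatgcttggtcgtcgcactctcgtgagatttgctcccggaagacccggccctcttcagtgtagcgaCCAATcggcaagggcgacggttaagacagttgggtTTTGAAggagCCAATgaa
Cdk1, chr10:69352913-69353092, minus strand: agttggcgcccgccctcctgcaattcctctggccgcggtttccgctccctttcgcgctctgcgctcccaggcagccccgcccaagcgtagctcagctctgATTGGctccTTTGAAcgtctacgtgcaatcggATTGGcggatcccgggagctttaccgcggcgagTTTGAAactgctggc
Hmmr, chr11:40733438-40733617, minus strand: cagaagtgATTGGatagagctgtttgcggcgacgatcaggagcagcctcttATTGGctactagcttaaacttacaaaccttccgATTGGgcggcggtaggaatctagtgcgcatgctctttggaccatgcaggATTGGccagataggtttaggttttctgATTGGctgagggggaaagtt
Plk1, chr7:122159255-122159434, plus strand: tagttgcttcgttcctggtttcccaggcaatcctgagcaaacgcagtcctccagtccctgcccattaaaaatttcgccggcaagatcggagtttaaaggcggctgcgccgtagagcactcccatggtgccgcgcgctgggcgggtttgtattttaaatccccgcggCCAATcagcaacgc

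Cdc20 and Cdk1 held TTTGAA close to the start, and Hmmr and Plk1 held theirs just past it, outside the stretches printed. Over the whole windows, TTTGAA or its reverse complement was found in 33 of the 43 members (76.7%), in 14.9% of the 10924 tested genes with a window and in 20.2% of all 27025 genes in the promoter table. CCAAT on either strand was found in 32 of 43 members (74.4%) and in 42.7% of tested genes, and 21 members (48.8%) and 16.2% of tested genes held at least 2 copies. Both kinds of letters together stood in 29 members (67.4%) and in 7.18% of tested genes. Among 1274 tested genes that were called higher and are neither members nor on the list of other mitosis genes below, 14.5% held TTTGAA. Of the 47 matches to TTTGAA in the members, 34 began within 60 bases of the start (72.3%), and of 6737 matches in all windows 28.2% did. Matches were counted per window, over 46 windows of the members, so a site in overlapping windows of Bub3, Ect2 or Prc1 counts more than once. By gene, 30 members held a match within 60 bases of a start.

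The members without TTTGAA in their window were Birc5, Bub1, Ccnb1, Cenpe, Mad2l1, Melk, Ncaph, Nuf2, Nusap1 and Pttg1. Ccnb1, which rose most, held 2 CCAAT boxes and the letters TTTAAA, which read the same on both strands and stood in 9 members (20.9%) and in 11.4% of tested genes. Kif15 and Bub3, which were not called higher, both held TTTGAA. The E2F letters TTTGGCGC or TTTCGCGC, searched on both strands, stood in 2 members, Cdk1 and Kif15 (4.65%), and in 1.74% of tested genes, and TTTGCCGC stood in 0 members and in 0.622% of tested genes. In all, 5 sets of letters were searched. They describe the windows and say nothing of which factor is bound.

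**Figure D2:**
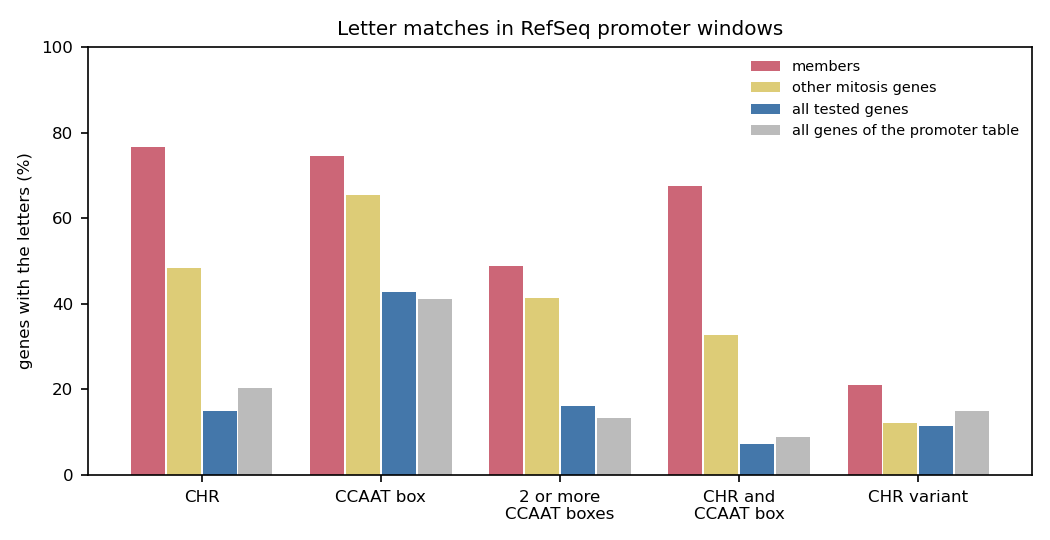
Share of genes (%) whose RefSeq promoter window holds the letters named under each group of bars, for the members (43 with a window), other mitosis genes (58), all tested genes (10924) and all genes of the promoter table (27025). CHR and CCAAT box letters stood in 76.7% and 74.4% of the members, the highest of the 4 bars in each group, and the CHR variant is TTTAAA.

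The kinases and cyclins of mitotic entry were all called higher, 11 of 11, with a median log2 fold change of 2.32. Ccnb1 (chr13:100778650-100786570, GRCm38), the main mitotic cyclin, read 0.258, 0.813, 0.469 and 0.683 FPKM in control livers and 8.95, 5.68, 4.77 and 8.23 in Usp39-HKO livers. The lowest Usp39-HKO liver stood several-fold above the highest control, and the log2 fold change of 3.36 ± 0.31 (edgeR adjusted p = 0.000278), a 10.3-fold rise, was the largest among the members. Its partner Cdk1 read 0.706, 1.21, 0.590 and 0.914 FPKM against 5.42, 3.44, 2.53 and 4.62, a log2 fold change of 1.97 ± 0.28 (edgeR adjusted p = 0.00146). Mouse A472 was the highest control and A471 the lowest Usp39-HKO liver for both genes, with no overlap between the groups.

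Plk1, the Polo-like kinase of entry and spindle assembly, read 0.594, 1.51, 0.371 and 0.567 FPKM in controls and 6.08, 4.06, 3.67 and 5.80 in Usp39-HKO livers (log2 fold change 2.41 ± 0.37, edgeR adjusted p = 0.00190). Aurka, the centrosomal Aurora kinase, read 1.25, 2.47, 2.16 and 2.54 FPKM against 6.67, 5.74, 4.31 and 5.75, the smallest rise of the entry genes at 1.16 ± 0.23 (edgeR adjusted p = 0.00589). Neither gene overlapped between the groups. Cdca3, which helps to remove the Cdk1 inhibitor Wee1, rose by 3.01 on the log2 scale, Cdc25c, the phosphatase that activates Cdk1, by 2.65, and the second mitotic cyclin Ccnb2 by 2.58. Pbk, a mitotic kinase, rose by 2.32, Ccna2, the cyclin of S phase and early mitosis, by 2.22, and Foxm1, a transcription factor of G2/M genes, by 1.70.

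Melk was the least secure of the calls. It read 0.147, 0.407, 0.157 and 0.194 FPKM in controls and 0.381, 0.627, 0.599 and 1.17 in Usp39-HKO livers, from 4 to 33 counts a mouse, and the highest control lay above the lowest Usp39-HKO liver. The log2 fold change was 1.31 ± 0.42 (edgeR adjusted p = 0.0422), and the call was lost when A468, A470, A471, A473, A474 or A475 was left out (edgeR adjusted p from 0.0629 to 0.130). The other 48 called members kept their call in every fit in which they were tested, including each fit that left 1 mouse out.

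**Figure D3:**
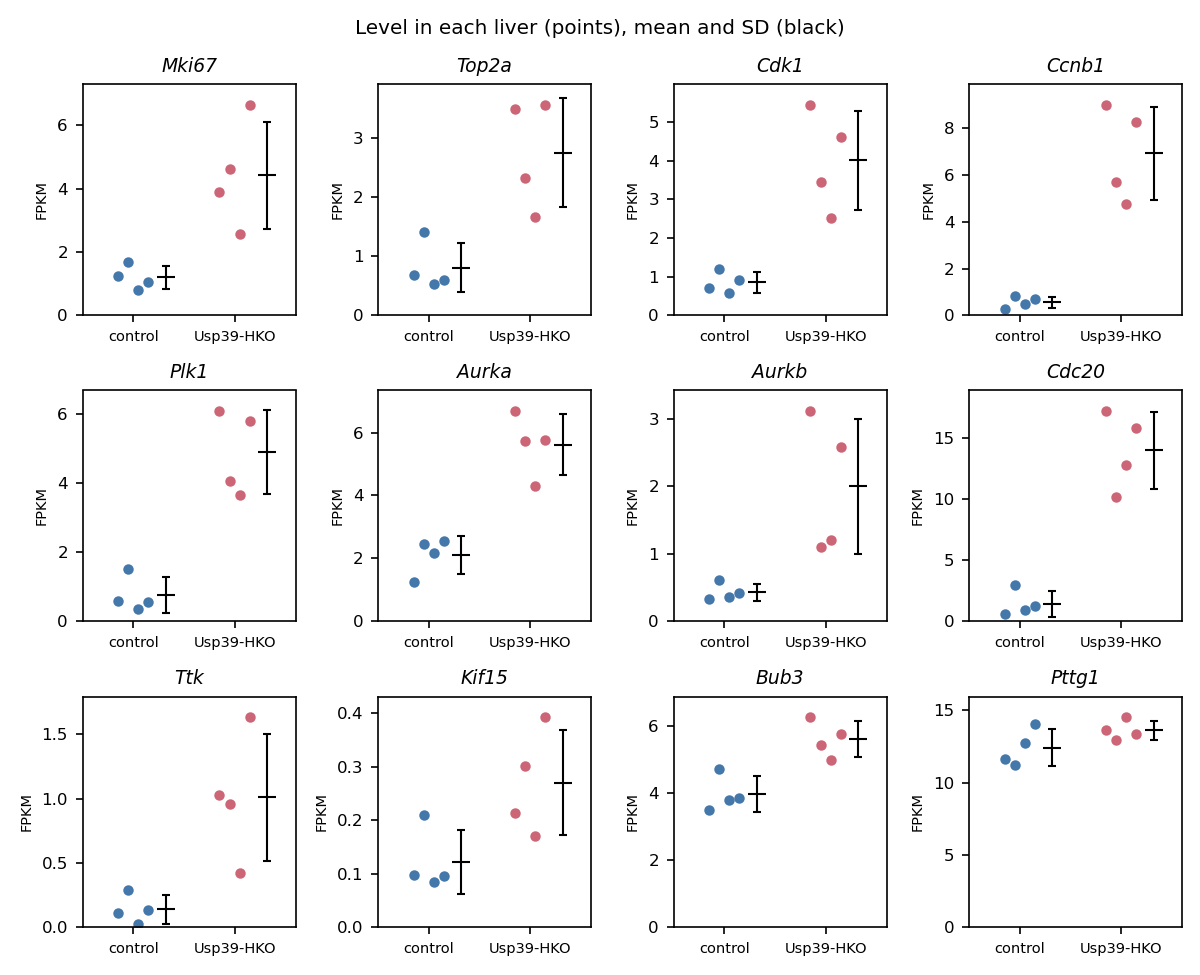
FPKM of 12 members in each liver (points, 4 per group, vertical axes starting at 0), with the group mean and SD in black. The groups are apart for Mki67, Top2a, Cdk1, Ccnb1, Plk1, Aurka, Aurkb, Cdc20, Ttk and Bub3, and they overlap for Kif15 and Pttg1.

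Of the 4 genes that act at anaphase, 3 rose. Cdc20, the activator of the APC/C, read 0.641, 2.97, 0.935 and 1.23 FPKM in controls and 17.1, 10.2, 12.7 and 15.8 in Usp39-HKO livers, a log2 fold change of 3.0 ± 0.37 (edgeR adjusted p = 0.000871). Ube2c, the ubiquitin-conjugating enzyme that works with the APC/C, rose by 2.32, and Espl1, the separase that cuts cohesin, rose by 1.68. Both groups stayed apart for these 3 genes. Pttg1, the securin that holds separase inactive, read 11.7, 11.2, 12.7 and 14.1 FPKM in controls and 13.6, 12.9, 14.5 and 13.4 in Usp39-HKO livers, values that overlapped. Its log2 fold change was -0.12 ± 0.11 (edgeR adjusted p = 0.479) and turned to 0.13 without scaling factors. On the FPKM scale, which is per length, Pttg1 had the highest control mean of the 53 members, 12.4 ± 1.26 (SD, n = 4).

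Spindle checkpoint genes rose in 4 of 5 cases. Ttk, the kinase also called Mps1 that starts checkpoint signalling, read 0.111, 0.287, 0.0237 and 0.137 FPKM in controls, where mouse A473 had a single read, and 1.02, 0.957, 0.426 and 1.63 in Usp39-HKO livers (log2 fold change 2.53 ± 0.51, edgeR adjusted p = 0.00615). Bub1, its kinase partner at the kinetochore, rose by 2.37, Mad2l1, the inhibitor of Cdc20, by 2.10 and Bub1b, the BubR1 protein, by 1.37. Bub3, the shared binding partner of Bub1 and Bub1b, read 3.5, 4.72, 3.79 and 3.84 FPKM against 6.24, 5.42, 4.97 and 5.75. Its FPKM values did not overlap, yet its log2 fold change was 0.24 ± 0.13 (edgeR adjusted p = 0.196), and it was called without scaling factors (0.50, edgeR adjusted p = 0.0139).

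The 3 listed genes that belong to the chromosomal passenger complex all rose. Aurkb, its kinase, read 0.333, 0.616, 0.356 and 0.424 FPKM in controls and 3.11, 1.1, 1.21 and 2.58 in Usp39-HKO livers (log2 fold change 1.94 ± 0.39, edgeR adjusted p = 0.00642). Birc5, or survivin, read 0.608, 0.979, 0.445 and 0.790 FPKM against 2.60, 3.17, 2.25 and 5.18 (1.93 ± 0.28, edgeR adjusted p = 0.00166). Cdca8, or borealin, read 0.252, 0.468, 0.202 and 0.222 FPKM against 1.67, 1.27, 1.21 and 1.83 (2.11 ± 0.28, edgeR adjusted p = 0.00124). The log2 fold changes of these 3 subunits lay between 1.93 and 2.11, and A472 was the highest control for each of them. Incenp, a further subunit that is on the list of other mitosis genes below, rose by 1.37 (edgeR adjusted p = 0.00657).

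At the centromere and kinetochore 6 of 7 genes rose. Nuf2, a subunit of the Ndc80 complex that binds microtubules, read 0.103, 0.207, 0.165 and 0.121 FPKM in controls and 0.876, 0.866, 0.529 and 1.1 in Usp39-HKO livers (log2 fold change 2.22 ± 0.30, edgeR adjusted p = 0.00125). Its partner Ndc80 rose by 1.98, the kinetochore motor Cenpe by 2.15, the kinetochore protein Cenpf by 1.98, Spc25 by 1.25 and Cenpa, the histone H3 variant of the centromere, by 1.19. Spc24, which pairs with Spc25 in the same complex, read 2.5, 2.63, 3.53 and 5.33 FPKM against 4.12, 5.11, 5.09 and 7.17. Those values overlapped, since control mouse A475 exceeded 3 of the 4 Usp39-HKO livers, and the log2 fold change was 0.35 ± 0.23 (edgeR adjusted p = 0.306).

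Mitotic kinesins, the motors that build and divide the spindle, rose in 6 of 7 cases. Kif20a, which carries the passenger complex to the midzone, read 0.628, 0.605, 0.483 and 0.774 FPKM in controls and 3.72, 3.78, 3.36 and 5.25 in Usp39-HKO livers, with the lowest adjusted p of the members (log2 fold change 2.42 ± 0.18, edgeR adjusted p = 0.000103). Kif2c, a microtubule depolymerase, rose by 2.32, the chromokinesins Kif4 and Kif22 by 2.29 and 1.43, the bipolar motor Kif11 by 1.64 and Kif23, a part of the centralspindlin complex, by 1.24. Kif15, which backs up Kif11, read 0.0988, 0.211, 0.0845 and 0.0958 FPKM in controls and 0.215, 0.303, 0.171 and 0.392 in Usp39-HKO livers. Its control mouse A472 lay above Usp39-HKO mouse A471. The log2 fold change of 0.86 ± 0.35 (edgeR adjusted p = 0.0996) was called when A472 was left out (1.25, edgeR adjusted p = 0.0219).

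Spindle microtubule proteins rose in 7 of 7 cases. Hmmr, which anchors spindle microtubules, read 0.281, 0.762, 0.236 and 0.194 FPKM in controls and 2.67, 3.25, 2.16 and 4.31 in Usp39-HKO livers (log2 fold change 2.79 ± 0.37, edgeR adjusted p = 0.00118). Nusap1, a microtubule-bundling protein, rose least of the group, from 0.537, 0.671, 0.545 and 0.875 FPKM to 2.71, 1.91, 1.55 and 2.60 (1.47 ± 0.24, edgeR adjusted p = 0.00279). None of the 7 genes overlapped between the groups. Between these ends lay Ckap2 at 2.67, Tpx2, the activator of Aurka, at 2.24, Ckap2l at 2.18, Stmn1, a tubulin-binding protein, at 1.83 and Prc1, the bundler of the central spindle, at 1.77.

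The regulators of cytokinesis rose in 3 of 3 cases. Ect2, the exchange factor that activates RhoA at the cleavage site, read 0.667, 0.749, 0.670 and 0.446 FPKM in controls and 3.88, 3.79, 2.63 and 4.56 in Usp39-HKO livers (log2 fold change 2.29 ± 0.21, edgeR adjusted p = 0.000278). Anln, the actin-binding anillin of the cleavage furrow, read 0.324, 0.735, 0.501 and 0.498 FPKM against 1.43, 1.21, 0.937 and 1.79 (1.11 ± 0.25, edgeR adjusted p = 0.0103). Racgap1, the other subunit of centralspindlin, rose by 2.01.

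The genes of chromosome structure rose in 6 of 6 cases with the lowest median of the role groups, 1.55. Mki67, the Ki-67 protein used to mark cycling cells, read 1.23, 1.69, 0.810 and 1.06 FPKM in controls and 3.89, 4.61, 2.56 and 6.63 in Usp39-HKO livers (log2 fold change 1.6 ± 0.26, edgeR adjusted p = 0.00243). Top2a, the topoisomerase that untangles replicated chromosomes, read 0.689, 1.42, 0.530 and 0.596 FPKM against 3.49, 2.33, 1.66 and 3.56 (1.5 ± 0.32, edgeR adjusted p = 0.00834). The groups were apart for both markers, although control A472 came close to Usp39-HKO mouse A471 for Top2a.

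Among the members that are subunits of the condensins, which compact chromosomes, Ncapg read 0.108, 0.228, 0.0494 and 0.190 FPKM in controls and 0.553, 0.944, 0.549 and 1.02 in Usp39-HKO livers (log2 fold change 2.10 ± 0.37, edgeR adjusted p = 0.00359), and its partner Ncaph rose by 2.05. Smc2, a core subunit, rose by 1.25. Smc4, the other core subunit, read 3.74, 3.80, 3.35 and 3.94 FPKM against 6.0, 8.47, 5.37 and 10.7. That was the smallest called rise of the members, at 0.77 ± 0.17 (edgeR adjusted p = 0.00850), and its groups did not overlap. Further condensin subunits are on the list of other mitosis genes below, and they did not all rise. Ncapg2 rose by 1.37 and Ncapd2 by 0.83. Ncapd3 (-0.21, edgeR adjusted p = 0.423) and Ncaph2 (-0.23, edgeR adjusted p = 0.147) were not called.

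For a single gene, an exact two-sided permutation test over the 70 assignments of 8 mice cannot give a p below 0.029, and every member without overlap reached that value. The p-values set the difference between the 2 groups against the variation between mice, and no batch is named in the labels.

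The ratio of partner genes within a mouse does not depend on scaling between mice. Pairs were written down after the members' values were seen, so they are given without a test. The log2 ratio of Ccnb1 to Cdk1 counts, with 1 count added to each, was -0.88 ± 0.48 (SD, n = 4) in controls and 0.57 ± 0.093 in Usp39-HKO livers. Bub1b stood to Bub3 at -3.42 ± 0.13 in controls and at -2.32 ± 0.22, and Espl1 to Pttg1 at -4.33 ± 1.07 and at -2.41 ± 0.38. By contrast Nuf2 to Ndc80 stood at 0.62 ± 0.25 and 0.84 ± 0.14, and Ncapg to Ncaph at -0.30 ± 0.69 and -0.21 ± 0.53. Bub1b to Bub3 and Espl1 to Pttg1 each set a member called higher against a member not called, so their shift follows from the values above. In all, 16 such pairs were compared. No share over other gene pairs was computed, so pairs without overlap are not counted here.

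Mice differed from one another in the same direction across most members. As a median over the 53 genes, CPM divided by the TMM factor stood at 0.795, 1.43, 0.827 and 0.951 of the control mean in the control mice and at 4.50, 3.70, 2.74 and 4.84 in the Usp39-HKO mice. A472 was the highest control for 43 of the 53 members, A471 the lowest Usp39-HKO liver for 45, and A474 the highest for 39. No group of 4 held an outlying Usp39-HKO mouse by Dixon's test, while A472 was outlying among controls for 6 members.

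**Figure D4:**
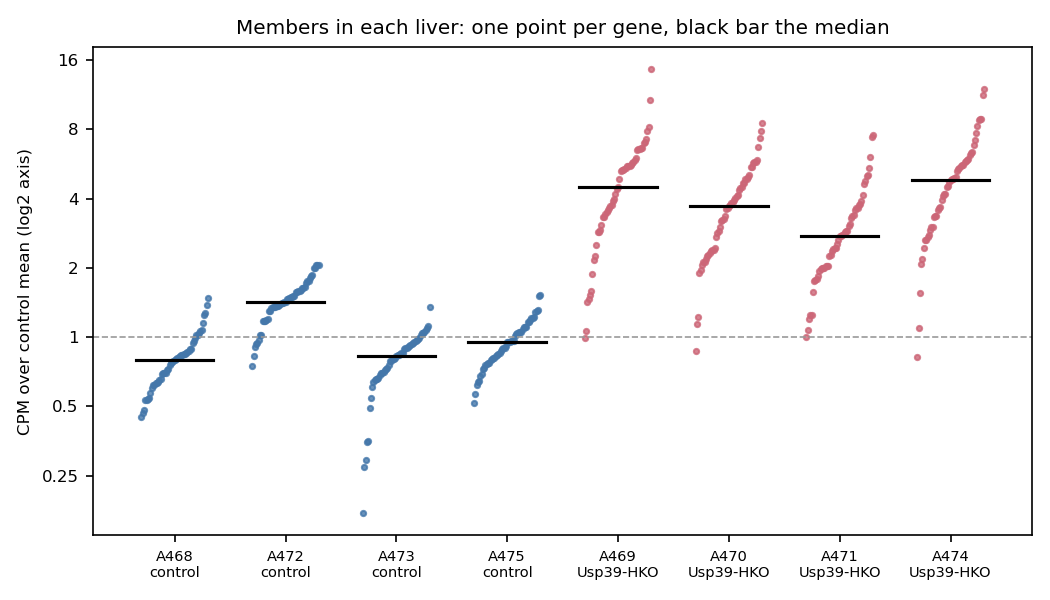
CPM, scaled by the TMM factor, of each member over its mean in the control mice (log2 axis), 1 point per gene, 53 genes in each of the 8 livers, with the median as a black bar. Medians lie between 0.795 and 1.43 in the controls and between 2.74 and 4.84 in the Usp39-HKO livers.

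Other mitosis genes, on a list written from function, rose with the members: 52 of 70 tested were called higher and 1 lower, against 11.5% and 12.2% of all genes. At an unadjusted p under 0.05, 57 were higher and 2 lower, and the median log2 fold change was 1.56. Of the 70, 59 also had a mean of at least 5 counts in the control mice alone. The rest passed the filter only through the Usp39-HKO livers, where they are high, so their calls carry less weight. Kif18b, with as few as 1 count in a mouse, is among them. Calls were not counted apart for the 59. Psrc1, a microtubule-associated protein, went from 0.177 ± 0.104 to 4.33 ± 1.53 FPKM (SD, n = 4 per group; log2 fold change 4.31 ± 0.38, edgeR adjusted p = 0.000239), and the kinesin Kif18b from 0.119 ± 0.072 to 1.21 ± 0.471 (3.06 ± 0.47, edgeR adjusted p = 0.00204). The 1 gene called lower with all mice was Ccnf, the cyclin F subunit of a ubiquitin ligase, which went from 4.96 ± 0.442 to 2.89 ± 0.488 FPKM (-1.02 ± 0.16, edgeR adjusted p = 0.00220), and it stayed called without scaling factors (-0.78), with median-ratio factors and without each mouse in turn.

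The APC/C itself and cohesin moved differently from the members. Of 15 APC/C subunits and Cdh1, 0 were called by edgeR or DESeq2, with 1 higher and 2 lower at an unadjusted p under 0.05 and a median of 0.00047. Without A470 or A472, Anapc16 was called higher and Anapc1 lower, and 2 were called higher without scaling factors. Cohesin, the ring that holds sister chromatids together, with its loaders had 0 of 10 called by edgeR and 1 higher by DESeq2, with 1 higher and 2 lower at an unadjusted p under 0.05. Over all genes tested, edgeR called 11.5% higher and 12.2% lower, so 0 calls in lists this short show no clear departure from all genes. No share over all genes was computed at the unadjusted p. The cohesin median of -0.21 turned to 0.049 without scaling factors, where Rad21 was called higher. Rad21 was also called higher without A469, Pds5b lower without A470, and Pds5b and Stag1 lower without A472.

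Factors that act at the promoters of such genes were called higher at close to the share of all genes. Of 23 MuvB, Myb, E2F and NF-Y genes, 2 were called higher (8.70%) and 0 lower, against 11.5% and 12.2% of all genes tested. At an unadjusted p under 0.05, 5 were higher and 2 lower, and DESeq2 gave the same counts as edgeR, 2 and 0. Mybl1, which encodes A-Myb, rose from 0.169 ± 0.062 to 2.64 ± 1.01 FPKM (log2 fold change 3.70 ± 0.35, edgeR adjusted p = 0.000334). Mybl2, which encodes B-Myb, rose from 0.209 ± 0.0692 to 0.489 ± 0.074 FPKM (0.96 ± 0.30, edgeR adjusted p = 0.0398), and this call was lost without A468, A470, A471, A473, A474 or A475 (edgeR adjusted p from 0.0571 to 0.118). Without scaling factors 8 were called higher. Without A472, E2f2 was called higher and Rbl2 lower, without A471 Rbl1 was called higher and without A470 E2f8 was called lower.

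**Figure D5:**
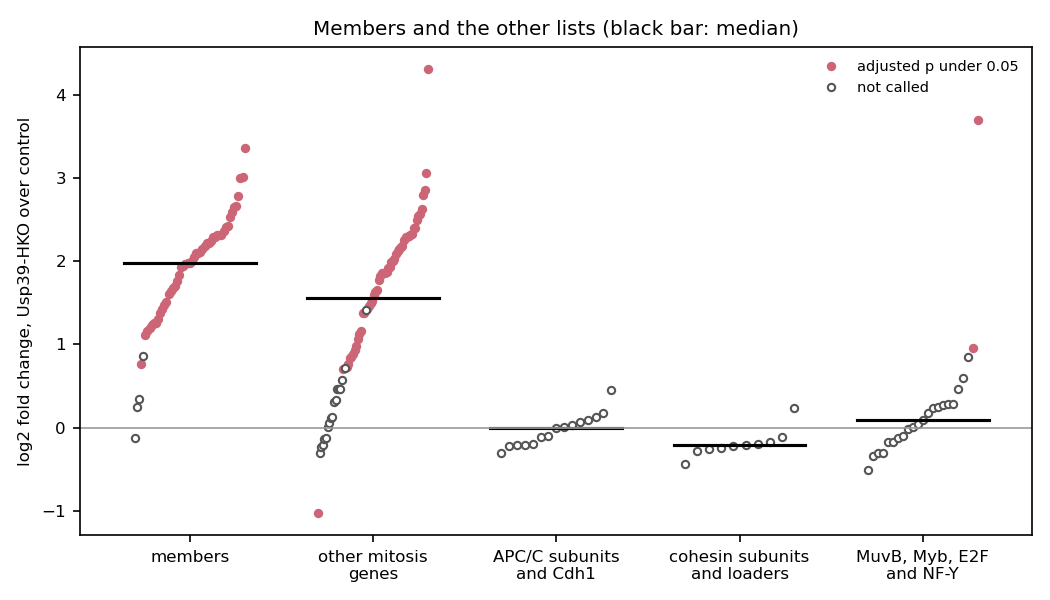
Log2 fold change, Usp39-HKO over control, of the 53 members and of the tested genes of 4 other lists, 1 point per gene and a black bar for the median. Medians are 1.98 for the members, 1.56 for other mitosis genes, 0.00047 for the APC/C, -0.21 for cohesin, which stood at 0.049 without scaling factors, and 0.087 for the promoter factors.

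Markers of some other liver cells were also higher in the Usp39-HKO livers. Of all genes tested, 11.5% were called higher and 12.2% lower. Summed FPKM of 8 cholangiocyte markers ran from 34.7 to 37.5 in controls and from 74.0 to 302 in Usp39-HKO livers (6 called higher), that of 11 macrophage markers from 401 to 564 and from 781 to 1105 (9 higher), and that of 10 stellate and fibroblast markers from 81.2 to 94.4 and from 128 to 285 (8 higher). For 11 T, NK and B cell markers the ranges were 8.84 to 10.4 and 10.6 to 14.7, a gap that, as a ratio, is smaller than that between the scaling factors of the groups, which FPKM does not carry. Of these markers 1 was called higher, Ptprc, and not without A470, A472, A473, A474 or A475. Sums overlapped for hepatocyte markers (6 of 12 lower), endothelial markers (2 of 8 lower), erythroid precursor markers (4 of 7 lower), neutrophil markers (0 of 9) and megakaryocyte markers (0 of 3), where Gp1bb was listed at 0 in all mice. These counts moved when a mouse was left out: hepatocyte markers called lower fell to 1 without A468 or A473, 2 without A471 or A475 and 3 without A470 or without scaling factors, and macrophage markers called higher fell to 4 without A473 and to 5 without A474 or A475. Cholangiocyte markers called higher fell to 5 without A468, A470, A471 or A472 and to 4 without A473, A474 or A475. Stellate and fibroblast markers called higher fell to 7 without A470, A471, A473, A474 or A475. Endothelial markers called lower fell to 1 without A468, A470, A471, A472, A474 or A475 and to 0 without A473, and Vwf was called higher without A472. Without scaling factors, 4 endothelial markers were called higher and 1 lower. Mouse A469 had the second highest median over the members. Of the Usp39-HKO livers it had the lowest cholangiocyte sum, 74.0, of which Spp1 gave 59.8, and the lowest stellate and fibroblast sum, 128. Mouse A474 was highest in that median and in both sums, and A469 had the highest neutrophil sum of all mice, 101. Among controls, A472 stood highest in that median. It also had the highest control sum of macrophage (564), erythroid precursor (634), neutrophil (75.3) and megakaryocyte (6.43) markers, and of hepatocyte, cholangiocyte and endothelial markers. For stellate and fibroblast and for T, NK and B cell markers it did not. The part of these cells in the rise of the mitotic genes was not tested.

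Genes that lie across or beside a member bear on its counts. The labels name no strand-marking kit and no strand setting is given, so reads of overlapping genes on opposite strands may be counted together. More than 10% of the exon bases overlapped a gene on the other strand for 7 members, and Kif20a (29.3%, with Cdc23) and Ube2c (22.8%, with Tnnc2) overlapped most. Cdc23 was not called (0.094, edgeR adjusted p = 0.567) and Tnnc2 had 0 counts in all mice. Ccnb1 has near copies among pseudogenes, of which Ccnb1-ps averaged 4.25 counts in controls and 5.75 in Usp39-HKO livers, against 22.8 and 283 for Ccnb1. Stmn1 has the near copy Gm11223, which rose with it (2.40, edgeR adjusted p = 0.0222), a call lost without A473, A474 or A475 (edgeR adjusted p from 0.0537 to 0.0687). Gm11223 averaged 1.75 counts in controls and 12 in Usp39-HKO livers. It passed the filter on low counts only through the Usp39-HKO livers, so its call carries little weight. Spc24 shares a short near-identical stretch with the abundant Malat1 (3788 to 10229 counts). How the counting divided reads among such copies is uncertain. Of 11 tested genes that start on the opposite strand within 1000 bases of a member's start, 2 were called higher, Oip5 beside Nusap1 (2.49) and Nudcd2 beside Hmmr (0.54), and 0 lower. Over all genes tested, 11.5% were called higher and 12.2% lower, so these few genes show no clear departure. Oip5 also overlaps 4.24% of the exon bases of Nusap1 and is itself on the list of other mitosis genes.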

How the data were processed

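Liver RNA of 8 mice was sequenced, and the deposited table gives raw read counts and FPKM per gene, made by the authors with Trim Galore 0.6.1 and FastQC 0.11.9, per the labels, then HISAT2 on mm10 and featureCounts. The labels also name Picard, with no version, and whether it changed the counts was not tested. Strand setting, annotation release and treatment of multi-mapping reads are not given in the sources used here. The deposited FPKM divides counts by exon length and by the total count of the mouse. Columns of the authors' own comparison (fold change and p-values) were not used. Members and lists were chosen with earlier results of these data known.

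Each of 314 repeated rows was read once. Counts were tested in edgeR 4.0.16 (R 4.3.3) by the quasi-likelihood test with TMM factors, genes with a mean of at least 5 counts, and Benjamini-Hochberg adjustment over 15620 genes. The fit was tested on simulated data. Alternatives were DESeq2 1.42.0, limma 3.58.1 on log2(FPKM + 1), other scaling and filters, the study's cutoff (unadjusted p under 0.05 and a log2 fold change past 0.5) and each mouse left out. Exact permutation tests used SciPy. Values per mouse are given for the largest and smallest change in each role, for Mki67, Top2a, Cdk1, Ccnb1, Plk1, Aurka and Aurkb, and for Melk, added after values were seen. Of each other list, the 2 largest rises and falls called are named, and other genes there were named after their values were seen. Gene models were GENCODE vM21, and near copies were found with BLAST (at least 150 bases, 97% identity). Totals of 8589636 to 10418450 counts a mouse limit the precision for genes with few counts.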

Additional observations from a re-analysis of the deposited data

Results flagged for a closer look

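Control mouse A472 lay apart from the other 3 controls for 6 members, by Dixon's test on the deposited FPKM within each group of 4. For Hmmr it read 0.762 FPKM, against 0.194 to 0.281 in the others, and for Ccna2 1.19 against 0.640 to 0.713. Ncaph read 0.539 against 0.177 to 0.223, and Racgap1 0.955 against 0.415 to 0.475. Prc1 read 0.601 against 0.326 to 0.331, and Kif15 0.211 against 0.0845 to 0.0988. In all, 106 groups were tested and 6 were marked, and chance marks about 1 group in 20. Without A472, 50 members were called higher, with a median log2 fold change of 2.18.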

How the results depend on the processing

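Over 16 alternatives, 48 of the 49 called members kept direction and call wherever tested, and Melk lost its call in 6 of the 8 fits without a mouse. The number of members called higher ran from 48 to 50 and the members' median from 1.87 to 2.18 when a mouse was left out. Limma on log2(FPKM + 1) gave a median of 0.95, on a scale that understates the change of low genes. Pttg1 turned to 0.13 both without scaling factors (0.132) and in limma (0.127). Bub3 was called in both of these, and Kif15 without scaling factors, at the study's cutoff and without A472. The filter on FPKM kept 46 members and that of a mean of 20 counts kept 50.

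Without scaling factors, 2 APC/C, 1 cohesin and 8 promoter factor genes were called higher. With a mouse left out, calls ran from 42 to 52 higher and 1 to 2 lower for other mitosis genes, 0 to 1 higher and 0 to 1 lower for the APC/C, 0 to 1 and 0 to 2 for cohesin, and 1 to 3 and 0 to 1 for the promoter factors. Calls over all genes ran from 2228 to 4014, against 3709 with all mice. No paired analysis was possible because the labels give no replicate numbers and no litter or batch that links a control to a Usp39-HKO mouse, and the numbers used here follow only the order of the samples. Members with few counts in controls, as low as 1 count a mouse, limit how precisely a fold change can be given.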
